A study of Homo sapiens with 4 samples.

Results

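The 6 genes PLAU, PLAT, PLAUR, SERPINE2, SERPINB2 and THBS1 of the plasminogen activator system were followed in RCC4 cells, a human clear cell renal cell carcinoma line, after silencing of PML. The 6 members were taken by gene symbol from the 59050 genes of the count table, and all 6 passed the filter on low counts that left 16516 genes for testing. They were the proteases PLAU and PLAT, the receptor PLAUR, the serpin inhibitors SERPINE2 and SERPINB2, and the matrix glycoprotein THBS1. In the shPML group, cells carried a doxycycline-inducible short hairpin RNA against PML, and in the shCtrl group they carried an inducible scrambled hairpin. Both groups received 100 ng/ml doxycycline for 96 h in medium with tetracycline-free serum, so the drug was common to cases and controls. Each group had 2 libraries, replicates 1 and 2, from experiments with independent lentiviral infections, and each library came from a bulk puromycin-selected population with a single hairpin sequence against PML. Polyadenylated RNA was sequenced, and the libraries held 27781193 to 69870617 gene-assigned counts.

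Plasminogen circulates as an inactive zymogen and is cut to plasmin, a broad protease that dissolves fibrin and degrades extracellular matrix. PLAU encodes urokinase, which works mainly at the cell surface on its receptor PLAUR, and PLAT encodes tissue-type plasminogen activator, best known for fibrin-bound activity. Serpins such as SERPINE2 and SERPINB2 trap these proteases in covalent complexes that are cleared by endocytic receptors, and urokinase and its inhibitors are often described among the secreted factors of senescent cells.

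PML itself, the targeted gene, was measured at 93.1 and 136 CPM (the usual counts per unit of library size, after TMM scaling) in shCtrl replicates 1 and 2 and at 54.9 and 87.6 CPM in shPML replicates 1 and 2. Both shPML libraries were below both shCtrl libraries, by a narrow gap between shPML replicate 2 and shCtrl replicate 1. The log2 fold change was -0.69 ± 0.30 (SE, n = 2 per group; adjusted p = 0.320, edgeR quasi-likelihood test), and with the replicate number as a block it was -0.70 ± 0.11 (adjusted p = 4.2e-07). All 9 renal carcinoma markers passed the filter on low counts, with a summed level of 4778 to 5903 CPM in shCtrl and 5896 to 8093 CPM in shPML.

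One library stood apart in the markers of another cell type. Of the 5 leukocyte markers, CD14 was at 42.8 CPM and PTPRC, the pan-leukocyte antigen CD45, at 12.6 CPM in shPML replicate 2, against at most 0.111 and 0.0976 CPM in the other libraries. ITGAM was at 5.60 CPM there and at 1.07 to 2.40 CPM elsewhere, whereas the T cell marker CD3E was at 0 in all 4 libraries. The summed level of the 5 markers was 1.11 to 1.36 CPM in shCtrl, 2.54 CPM in shPML replicate 1 and 61.0 CPM in shPML replicate 2. A list of 12 monocyte and macrophage genes, chosen after these values were seen, had its highest level in shPML replicate 2 for 12 of 12 genes. LYZ, which encodes lysozyme, was at 85.4 CPM there and at most at 0.0739 CPM elsewhere, and the scavenger receptor gene CD163 was at 23.2 CPM there and at most at 0.0833 CPM elsewhere. The sum of the 12 genes was 9.44 to 17.2 CPM in shCtrl, 27.7 CPM in shPML replicate 1 and 353 CPM in shPML replicate 2. Outside shPML replicate 2 most of this sum was ITGB2, an integrin chain of leukocytes, at 15.4 and 7.22 CPM in shCtrl replicates 1 and 2 and 26.8 CPM in shPML replicate 1, and it was at 84.2 CPM in shPML replicate 2. Among the 4 endothelial markers the sum was 0.148 to 0.389 CPM in shCtrl, 0.223 CPM in shPML replicate 1 and 4.36 CPM in shPML replicate 2. Most of the last sum was PECAM1, at 4.11 CPM there and at most at 0.0418 CPM elsewhere, while CDH5 and TEK were at 0 there. Among the 5 fibroblast markers the sum was 14.7 to 25.8 CPM in shCtrl and 11.6 to 14.4 CPM in shPML. Because monocytes are a known source of PLAU, PLAUR and SERPINB2 transcripts, the result of each member is also given without shPML replicate 2 or within replicate 1, where the leukocyte markers CD14 and PTPRC were near 0 in both libraries, and the part of these transcripts in the results was not otherwise tested. In these bulk libraries, a change in the number of cells of a type and a change in RNA per cell cannot be told apart.

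The first question was which members differed between shPML and shCtrl. PLAU, PLAT, SERPINE2 and SERPINB2 were higher in both shPML libraries than in both shCtrl libraries, and PLAUR and THBS1 overlapped between the groups. Over all genes tested, 23.1% had both shPML libraries above both shCtrl libraries and 24.9% had both below. Calls required a Benjamini-Hochberg adjusted p below 0.05 together with a change of more than 0.5 on the log2 scale in either direction. The edgeR quasi-likelihood test without a block called 0 of 6 members, with 3 of 6 at an unadjusted p under 0.05, while it called 0.0787% of all genes tested as higher and 0.333% as lower. With the replicate number as a block, edgeR called PLAU, PLAT and SERPINB2 as higher and 0 members as lower, beside 8.57% of all genes tested called higher and 10.5% called lower. DESeq2 without a block called the same 3 genes as higher, beside 3.47% of all genes it tested, and without shPML replicate 2 it called 2 members, PLAT and SERPINB2, beside 0.845% of all genes it tested called higher. The blocked edgeR fit also called 5 of the 5 tested monocyte and macrophage genes as higher, and CSF1R and FCER1G among them were lower in shPML than in shCtrl within replicate 1 (log2 ratios of -2.83 and -1.88). The median log2 fold change of the members was 0.59 without the block and 0.61 with it, and over all genes tested it was 0.01 and 0.00423. The members were chosen with earlier results of these data known, so the gap between these medians is a description only.

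Among the proteases, PLAT on chromosome 8 (GRCh38, 42175233 to 42207724, minus strand, 15 exon blocks) was at 7.22 CPM in shCtrl replicate 1 and 3.92 CPM in shCtrl replicate 2, from 391 and 141 counts. It was at 33.1 CPM in shPML replicate 1 and 36.7 CPM in shPML replicate 2, from 2373 and 1009 counts. Both shPML libraries were thus several times above both controls and lay close to each other. The group means were 5.57 ± 2.34 CPM in shCtrl and 34.9 ± 2.54 CPM in shPML (SD, n = 2). The log2 fold change was 2.64 ± 0.33 (SE; adjusted p = 0.0520, edgeR) without the block and 2.66 ± 0.16 (adjusted p = 5.6e-21, edgeR) with it. PLAT was 4.58-fold higher in replicate 1 and 9.37-fold higher in replicate 2, and it ranked 118 from the top of the 16516 genes by fold change. Without shPML replicate 2 its log2 fold change was 2.57, and in replicate 1 alone the log2 ratio was 2.20 ± 0.08 (counting error).

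PLAU on chromosome 10 (GRCh38, 73911104 to 73917496, plus strand, 11 exon blocks) was the more abundant protease per length in every library. It was at 68.4 and 44.7 CPM in shCtrl replicates 1 and 2 and at 104.06 and 105.6 CPM in shPML replicates 1 and 2. The shPML libraries differed by 1.01-fold, whereas the shCtrl libraries differed by 1.53-fold. Its log2 fold change was 0.89 ± 0.24 (SE, n = 2 per group; adjusted p = 0.146, edgeR), and 0.92 ± 0.12 with the replicate block (adjusted p = 5.2e-09, edgeR). PLAU was 1.52-fold higher in replicate 1 and 2.36-fold higher in replicate 2. Without shPML replicate 2 the log2 fold change was 0.88 in edgeR and 0.89 in DESeq2, which no longer called PLAU. The opposite-strand gene C10orf55 shares 771 exon bases with PLAU, which are 28.7% of the PLAU exon bases, and its own counts were 3, 4, 37 and 10 in shCtrl replicates 1 and 2 and shPML replicates 1 and 2. The strand setting of the counting was not given in the sources used here.

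The 250 bases before a start site are shown for PLAU and SERPINB2, which were called together in the blocked fit, and further on for PLAUR and THBS1, which were not called. They were taken from RefSeq promoter windows (GRCh38.p14), in which 5 of the 6 members had an entry. Capitals mark matches on either strand to 3 motifs that do not overlap one another in the windows shown. TGANTCA is the core of AP-1 sites, GGGCGG is known as the GC box, and TATAAA is found in many TATA boxes. Among 35116 promoter windows of the same length, 6.57% held TGANTCA, 42.6% held GGGCGG and 10.7% held TATAAA. PLAU (chr10:73910882-73911131, plus strand) held GGGCGG at 66, 51 and 40 bases before the start. Another PLAU window (chr10:73910360-73910609, plus strand), which is not shown, held 0 of these motifs, and both SERPINE2 windows held GGGCGG on one strand or the other.
PLAU: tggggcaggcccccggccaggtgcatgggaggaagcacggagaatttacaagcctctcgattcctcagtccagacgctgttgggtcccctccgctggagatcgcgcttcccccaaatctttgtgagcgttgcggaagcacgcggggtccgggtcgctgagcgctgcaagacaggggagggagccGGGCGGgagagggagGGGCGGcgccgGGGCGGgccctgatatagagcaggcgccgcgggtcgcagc

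SERPINB2 (chr18:63887455-63887704, plus strand) held TGAATCA at 102 bases and TATAAA at 30 bases before the start.
SERPINB2: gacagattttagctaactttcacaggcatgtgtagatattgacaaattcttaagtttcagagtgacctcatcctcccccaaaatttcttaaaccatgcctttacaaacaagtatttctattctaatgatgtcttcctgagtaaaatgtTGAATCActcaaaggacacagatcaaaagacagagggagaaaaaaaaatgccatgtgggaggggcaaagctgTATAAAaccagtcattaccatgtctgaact

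SERPINB2 encodes an inhibitor of urokinase and tissue-type activator that is largely retained inside cells. On chromosome 18 (GRCh38, 63887705 to 63903888, plus strand, 9 exon blocks), it was at 3.99 CPM in shCtrl replicate 1 and 0.944 CPM in shCtrl replicate 2, from 216 and 34 counts. It was at 14.1 CPM in shPML replicate 1 and 18.7 CPM in shPML replicate 2, from 1012 and 515 counts. The shCtrl libraries differed from each other by 4.23-fold, and 3.09% of all genes tested had a larger gap between these libraries. The log2 fold change was 2.71 ± 0.65 (SE, n = 2 per group; adjusted p = 0.125, edgeR) without the block and 2.83 ± 0.26 (adjusted p = 8.6e-14, edgeR) with it. SERPINB2 was 3.54-fold higher in replicate 1 and 19.8-fold higher in replicate 2, so its size rested on which control library it was set against. Without shCtrl replicate 1 the log2 fold change was 4.13 and without shCtrl replicate 2 it was 2.03. Without shPML replicate 2, the library with leukocyte markers, it was 2.50 (adjusted p = 0.286 by edgeR and 0.00747 by DESeq2), and in replicate 1 alone the log2 ratio was 1.82 ± 0.11 (counting error).

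No neighbour of SERPINB2 in the chromosome 18 serpin cluster was called higher by edgeR, with or without the block. SERPINB5, SERPINB12, SERPINB13, SERPINB4, SERPINB3, SERPINB11 and SERPINB10 had 0 counts in all 4 libraries. SERPINB7 was lower in shPML, at 6.65 and 3.14 CPM in shCtrl replicates 1 and 2 and 2.23 and 1.78 CPM in shPML replicates 1 and 2, and the blocked fit called it (log2 fold change -1.23 ± 0.31 SE, adjusted p = 0.00138, edgeR). SERPINB8 was at 39.8 and 26.6 CPM in shCtrl and 44.9 and 36.6 CPM in shPML, and the groups overlapped. Within replicates 1 and 2 it was higher in shPML, with log2 ratios of 0.17 and 0.46. Its log2 fold change with the block was 0.31 ± 0.12 (SE, adjusted p = 0.0468, edgeR), short of the 0.5 required for a call.

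SERPINE2 encodes protease nexin 1, a secreted inhibitor of thrombin, urokinase and plasmin. On chromosome 2 (GRCh38, 223975045 to 224039288, minus strand, 12 exon blocks), it was at 133 and 138 CPM in shCtrl replicates 1 and 2 and at 169 and 164 CPM in shPML replicates 1 and 2. Libraries within a group differed by at most 1.03-fold, and the groups did not overlap. The log2 fold change was 0.30 ± 0.14 (SE; adjusted p = 0.369, edgeR), and 0.30 ± 0.10 with the block (adjusted p = 0.0193, edgeR), short of the 0.5 required for a call. SERPINE2 was 1.26-fold higher in replicate 1 and 1.19-fold higher in replicate 2, and 0.32 on the log2 scale without shPML replicate 2.

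PLAUR encodes the membrane-anchored urokinase receptor. On chromosome 19 (GRCh38, 43646095 to 43670547, minus strand, 8 exon blocks), it was at 81.1 and 62.3 CPM in shCtrl replicates 1 and 2 and at 76.1 and 83.9 CPM in shPML replicates 1 and 2. The libraries of the groups interleaved, with the lowest and the second highest value both in shCtrl. The log2 fold change was 0.16 ± 0.19 (SE, n = 2 per group; adjusted p = 0.750, edgeR), and 0.16 ± 0.12 with the block (adjusted p = 0.313, edgeR). Its log2 ratio was -0.09 ± 0.03 (counting error) within replicate 1 and 0.43 ± 0.04 in replicate 2, the replicate whose shPML library carried the leukocyte markers, and their part in this value was not tested. Its window (chr19:43670170-43670419, minus strand) held TGAGTCA at 186 bases before the start.
PLAUR: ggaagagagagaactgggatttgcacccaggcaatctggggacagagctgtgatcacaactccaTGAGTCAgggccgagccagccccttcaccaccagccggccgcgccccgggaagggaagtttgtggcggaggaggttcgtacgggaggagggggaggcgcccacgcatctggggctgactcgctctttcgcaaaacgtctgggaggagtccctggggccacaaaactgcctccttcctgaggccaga

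THBS1 encodes thrombospondin 1, a matrix glycoprotein that binds plasminogen activators and plasmin and activates latent TGF-beta. It was the most abundant member per length in every library, at 199 to 316 CPM per kilobase. On chromosome 15 (GRCh38, 39581093 to 39599466, plus strand, 22 exon blocks), it was at 1547 and 2457 CPM in shCtrl replicates 1 and 2 and at 1580 and 1864 CPM in shPML replicates 1 and 2. Both shPML values lay between the control values, and both replicate 2 libraries were above both replicate 1 libraries. The log2 fold change was -0.22 ± 0.26 (SE; adjusted p = 0.750, edgeR), and -0.18 ± 0.09 with the block (adjusted p = 0.119, edgeR). Within replicate 1 the groups differed by 0.0307 on the log2 scale, and within replicate 2 by -0.399. Its window (chr15:39580829-39581078, plus strand) held GGGCGG on one strand or the other at 223, 172, 125 and 72 bases before the start.
THBS1: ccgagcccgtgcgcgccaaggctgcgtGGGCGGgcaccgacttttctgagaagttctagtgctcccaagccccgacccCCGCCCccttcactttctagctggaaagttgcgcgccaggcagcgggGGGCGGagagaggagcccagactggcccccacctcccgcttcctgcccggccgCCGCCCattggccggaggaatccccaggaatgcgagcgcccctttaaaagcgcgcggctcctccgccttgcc

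**Figure D1:**
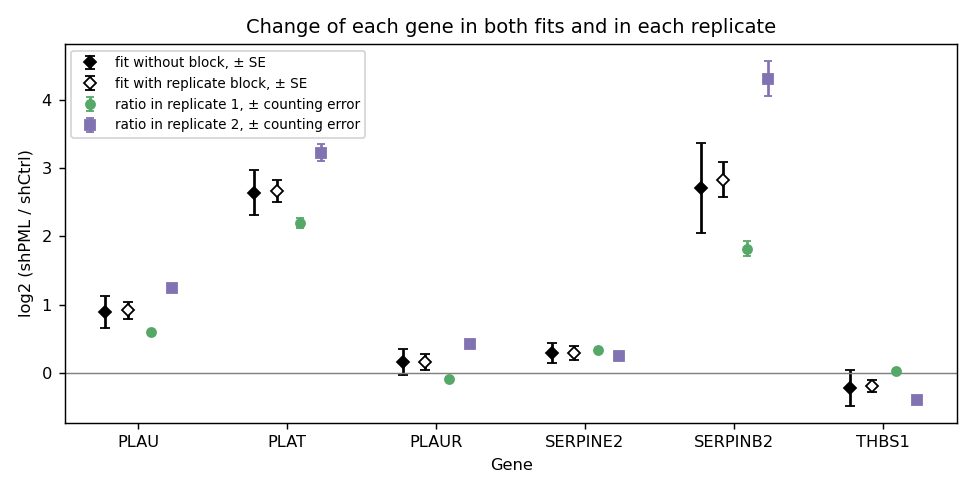
Log2 of shPML over shCtrl for each member, with filled diamonds for the fit without a block and open diamonds for the fit with the replicate block (bars, SE), and circles and squares for the ratios in replicates 1 and 2 (bars, counting error of the library pair). PLAT, PLAU, SERPINB2 and SERPINE2 lay above 0 in both replicates, and SERPINB2 ran from 1.82 in replicate 1 to 4.31 in replicate 2.

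The variation of each member over the 4 libraries was divided between condition, experiment and the remainder. Condition held 94.9% of the variance of log2 CPM of PLAT, 81.9% of that of PLAU, 98.0% of that of SERPINE2 and 81.1% of that of SERPINB2. Experiment held 71.9% of the variance of THBS1, and the remainder, in which the replicates went different ways, held 61.2% of that of PLAUR. Of the variance summed over all genes tested, condition held 41.8%, experiment 44.9% and the remainder 13.3%. The most variable genes weigh most in this sum, so it is not the share of a typical gene. Against this background, 37.0% of all genes tested were higher in shPML in both replicates, as 4 of the 6 members were, and 25.7% went in opposite directions, as PLAUR and THBS1 did.

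The second question was how proteases and inhibitors compared. The summed proteases PLAU and PLAT were at 28.1 and 18.1 CPM per kilobase in shCtrl replicates 1 and 2 and at 50.7 and 52.6 CPM per kilobase in shPML replicates 1 and 2. The summed inhibitors SERPINE2 and SERPINB2 were at 43.7 and 43.7 CPM per kilobase in shCtrl and at 59.5 and 60.3 CPM per kilobase in shPML. Both sums were higher in both shPML libraries, and transcripts of the inhibitors exceeded those of the proteases in all 4 libraries. The ratio of proteases to inhibitors was 0.642 and 0.413 in shCtrl replicates 1 and 2 and 0.853 and 0.873 in shPML replicates 1 and 2. This was a difference of 0.74 on the log2 scale, or 1.68-fold, with 0.41 in replicate 1 and 1.08 in replicate 2. Without shCtrl replicate 2 the difference was 0.43, and without shPML replicate 2 it was 0.73. No p is given for this ratio, since it is a sum over chosen genes, and with 2 libraries against 2 an exact two-sided permutation test cannot go below 0.333.

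The make-up of each side also differed between the groups. PLAT made up 9.33% and 7.87% of the protease transcripts per length in shCtrl replicates 1 and 2 and 23.7% and 25.3% in shPML replicates 1 and 2. SERPINB2 made up 4.22% and 0.999% of the inhibitor transcripts in shCtrl and 11.0% and 14.4% in shPML. PLAU and SERPINE2 thus stayed the main transcript of their side in every library. The ratio of PLAU to its receptor PLAUR per length was 0.690 and 0.588 in shCtrl and 1.12 and 1.03 in shPML. Receptor transcripts were thus in excess in both controls, and ligand transcripts were only slightly in excess in both shPML libraries. The value of 1.03 was in shPML replicate 2, the library with leukocyte markers. The part of the exon bases shared with C10orf55 in the PLAU level was not tested.

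The other genes of the system were read from lists, in the fit with the replicate block unless stated. That fit called 8.57% of all genes tested higher and 10.5% lower, and the fit without the block 0.0787% and 0.333%. Without the block, 0 genes were called among plasminogen and its binding proteins or among clade B serpins. Plasminogen itself, PLG, was at most at 0.0370 CPM and did not pass the filter. Among plasminogen and its binding proteins, 0 of 5 tested genes were called higher and 1 lower, PLGRKT, which encodes a plasminogen receptor (22.9 and 20.8 CPM in shCtrl, 16.5 and 13.9 CPM in shPML, log2 fold change -0.52). Among other inhibitors of the system, 0 of 4 tested genes were called, and without the block it was also 0 of 4. SERPINF2, which encodes the main plasmin inhibitor of plasma, was at 1.03 and 2.17 CPM in shCtrl and 2.36 and 3.46 CPM in shPML, and it had a log2 fold change of 0.93 (adjusted p = 0.0551, edgeR). Among clade B serpins other than SERPINB2, 1 of 4 tested genes was called lower, SERPINB7, and 0 were called higher.

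The receptors and adhesion partners showed calls in both directions. Of 12 tested genes, 5 were called higher and 1 lower with the block, and ITGA5 and ITGB1 were called without it (both adjusted p = 0.0484, edgeR). ITGA5 and ITGB1 encode the chains of the fibronectin receptor, an integrin that associates with PLAUR. ITGA5 was at 319 and 335 CPM in shCtrl replicates 1 and 2 and at 816 and 842 CPM in shPML, a log2 fold change of 1.34. ITGB1 was at 795 and 707 CPM in shCtrl and at 251 and 222 CPM in shPML, a log2 fold change of -1.67. The chains of this receptor thus moved in opposite directions, by similar amounts in both replicates. ITGAV, the alpha chain of vitronectin receptors, was at 219 and 212 CPM in shCtrl and 399 and 399 CPM in shPML (log2 fold change 0.89), and the endocytic receptor gene VLDLR had a log2 fold change of 0.75. IGF2R, which binds PLAUR and latent TGF-beta, had a log2 fold change of 0.57. SORL1, a sorting receptor of the same family as VLDLR, was at 0.370 and 0.389 CPM in shCtrl and at 1.00 and 4.84 CPM in shPML, highest in the library with leukocyte markers. LRP1, the main clearance receptor of protease and serpin complexes, was at 454 and 428 CPM in shCtrl and 348 and 498 CPM in shPML and was not called (log2 fold change -0.08, adjusted p = 0.603, edgeR). The median log2 fold change of this list, also chosen with earlier results known, was 0.20 with the block, beside 0.00423 over all genes tested.

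Among growth factors and cytokines that plasmin or its activators can process, 3 of 8 tested genes were called higher and 1 lower. Without the block, 0 were called higher and 1 lower. BDNF, whose precursor plasmin cleaves, was at 57.5 and 54.9 CPM in shCtrl and 19.8 and 22.3 CPM in shPML, a log2 fold change of -1.42, and it was also called without the block (adjusted p = 0.0484, edgeR). MST1, a ligand related to hepatocyte growth factor, had a log2 fold change of 1.45, at 2.85 and 2.56 CPM in shCtrl and 6.08 and 9.13 CPM in shPML. TGFB3 had a log2 fold change of 1.08 and TGFB2 one of 2.92, the latter from levels of at most 0.946 CPM. TGFB1 was set apart by experiment, at 117 and 353 CPM in shCtrl replicates 1 and 2 and 129 and 388 CPM in shPML, and was not called (log2 fold change 0.14, adjusted p = 0.301, edgeR).

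Coagulation genes and thrombin receptors, whose pathway makes the fibrin that plasmin dissolves, gave 4 calls higher and 2 lower among 11 tested genes. Without the block, 0 of the 11 genes were called. F3, which encodes tissue factor, was at 58.9 and 122 CPM in shCtrl and 31.0 and 33.2 CPM in shPML (log2 fold change -1.39, adjusted p = 4.8e-13 with the block, edgeR). F2RL1, the receptor PAR2, was at 264 and 298 CPM in shCtrl and 106 and 88.4 CPM in shPML (log2 fold change -1.53). F2RL2, a cofactor receptor for thrombin, was at 1.70 and 0.944 CPM in shCtrl and 6.96 and 7.53 CPM in shPML (log2 fold change 2.47). TFPI2, a Kunitz inhibitor of plasmin and other serine proteases, was at 39.8 and 44.9 CPM in shCtrl and 79.1 and 87.1 CPM in shPML (log2 fold change 0.97), and F2R, the receptor PAR1, had a log2 fold change of 0.65. The remaining call, THBD, which encodes thrombomodulin, had a log2 fold change of 0.51, and its groups overlapped.

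Relatives of THBS1 and PLAUR were also examined. Among the other thrombospondins, 1 of 2 tested genes was called, THBS3, at 7.72 and 6.03 CPM in shCtrl and 24.0 and 16.3 CPM in shPML (log2 fold change 1.54). Among genes with the LY6/PLAUR domain, 1 of 6 tested genes was called higher and 2 lower. Without the block, 1 was called higher and 0 lower. LYPD1 was at 4.91 and 6.11 CPM in shCtrl and 24.6 and 28.1 CPM in shPML, a log2 fold change of 2.26, and was also called without the block (adjusted p = 0.0484, edgeR). LYPD6 had a log2 fold change of -1.87 and CD177 one of -0.68.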

How the data were processed

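The authors trimmed single-end reads with Trimmomatic 0.39, aligned them to GRCh38 with STAR and counted them per gene with featureCounts 1.6.4. The deposited table holds raw counts per gene for 4 libraries, with gene length and exon coordinates as other columns. The labels state that a pair of samples had been swapped and corrected, and the corrected labels were used. The members and lists were chosen with earlier results of these data known. Counts were filtered with filterByExpr, scaled with TMM and fitted without a block with edgeR 4.0.16 (glmQLFit, glmQLFTest), with Benjamini-Hochberg adjustment over all 16516 genes tested. Genes past both thresholds, 0.05 for the adjusted p and 0.5 for the absolute log2 fold change, were called. The replicate 1 columns carry no number and were assigned by elimination. Replicate numbers were read as the 2 infection experiments that the methods describe, and deviations of the replicate 1 libraries from their group means correlated across genes (r = 0.546), so the blocked values are given where they change a call. DESeq2 1.42.0, RLE scaling, other filters, the block and leaving out each library were alternatives. The p-values rest on 2 libraries per group. Levels between genes are CPM per kilobase of exon. Each SE of an edgeR log2 fold change was derived from the test, as its absolute value over the square root of the F statistic. Counting errors cover counting only. Of each pathway list, genes called with the block were named, at most 3 per direction, beside the genes whose pattern over the 4 libraries was nearest to a member's by Euclidean distance of centred log2 CPM (prior count 2). Names beyond this rule (PLG, SERPINF2, LRP1, TGFB1, IGF2R, VLDLR, THBD, LYZ, CD163, ITGB2, CSF1R, FCER1G) were chosen after their values were seen. The fits were tested on simulated data. The value of 1 leukocyte marker is not reported here.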

Additional observations from a re-analysis of the deposited data

Results flagged for a closer look

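PLAUR and THBS1 went in opposite directions in the replicates. The log2 ratio of shPML over shCtrl for PLAUR was -0.0919 in replicate 1 and 0.431 in replicate 2, and for THBS1 it was 0.0307 in replicate 1 and -0.399 in replicate 2. The difference between the replicates was not tested, since each has 1 library per group. The shPML library of replicate 2 also held the leukocyte markers CD14 at 42.8 CPM and PTPRC at 12.6 CPM, and their part in these ratios was not tested.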

How the results depend on the processing

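Under the alternatives run, no member changed direction except PLAUR (-0.0268) and THBS1 (0.15), both without shCtrl replicate 2. With the replicate block, edgeR called 3150 genes and 3 members, with log2 fold changes of 0.92 for PLAU, 2.66 for PLAT and 2.83 for SERPINB2, where the unblocked fit called 68 genes and 0 members. DESeq2 without the block called 1378 genes and 3 members (PLAU 0.90, PLAT 2.65, SERPINB2 2.73), and with the replicate block 2294 genes and 3 members (0.93, 2.70 and 3.06). RLE scaling called 0 genes in edgeR (2967 at an unadjusted p under 0.05), and 3091 genes and 3 members with the block (0.93, 2.67 and 2.84). With at least 10 counts in every library, 197 genes and 1 member, PLAT (2.65), were called, and without a filter 1837 genes and 3 members (0.90, 2.64 and 2.71). DESeq2 without shPML replicate 2 called 529 genes and 2 members (PLAT 2.58, SERPINB2 2.52). Leaving out each library in turn in edgeR called 0 to 248 genes and 0 to 1 member (PLAT, 2.70, without shPML replicate 1), with ranges of 0.61 to 1.25 for PLAU, 2.26 to 3.17 for PLAT, -0.0268 to 0.377 for PLAUR, 2.03 to 4.13 for SERPINB2 and -0.50 to 0.15 for THBS1. The causes were not tested. RLE with the block and DESeq2 without shPML replicate 2 were added after seeing the data. Leaving out each library was planned as a value with no test, and its test, added later, assumes that the lone library varies like the others. SERPINB2 had 34 counts in shCtrl replicate 2, which limits its fold change.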

Other observations

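The genes whose pattern over the 4 libraries was nearest to each member are given as a description, since the 4 points are few and share depth and experiment. For SERPINB2 the nearest genes included FOSB, a subunit of AP-1, at 33.6 and 6.25 CPM in shCtrl replicates 1 and 2 and 98.4 and 128 CPM in shPML replicates 1 and 2, with a distance of 0.285. Its low value in shCtrl replicate 2 and high values in shPML follow from the choice of FOSB by distance to SERPINB2. A link between these genes was not tested. The other genes nearest to SERPINB2 were AC116351.1 and IMPG2, both under 1 CPM in every library. For PLAT they were RF02156, PIK3IP1, an inhibitor of phosphoinositide 3-kinase signalling, at 6.17 and 3.78 CPM in shCtrl and 35.3 and 35.3 CPM in shPML (distance 0.226), and the thrombin cofactor receptor F2RL2 (distance 0.233). For PLAU they were LYST, a regulator of lysosome size (distance 0.0502), ZKSCAN7 and AC129507.2. SERPINE2 was nearest to TMEM245, ALG1 and RSPRY1, PLAUR to NUDT6, TRIM38 and ZNF133, and THBS1 to C5orf15, CDC42EP3 and EVI2A.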
